A study of Mus musculus with 2 samples.

Results

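Described here are 10 guanylate-binding protein (GBP) and immunity-related GTPase (IRG) genes, which were taken by symbol out of 32285 genes in the count matrices of islet leukocytes from NOD mice. Gbp2, Gbp3, Gbp4, Gbp5, Gbp6, Gbp7, Gbp8 and Gbp9 encode GBPs. Iigp1 encodes an effector IRG that accumulates on pathogen vacuoles, and Irgm1 encodes a regulatory IRG that sits on the membranes of the cell's own organelles. All 10 symbols were present once in both matrices, and all had unique molecular identifiers (UMIs, each a tag of 1 captured mRNA molecule) in both libraries.

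GBPs and IRGs are GTP-hydrolysing proteins that cells make in response to interferons. Interferon-gamma, made by activated T cells and natural killer (NK) cells, is their classic inducer in mice, and type I interferons induce many of them too. The proteins coat vacuoles and bacteria inside cells and help to open them, and several GBPs promote the activation of inflammasomes. In the islets of non-obese diabetic (NOD) mice, which develop autoimmune diabetes, the T cells that infiltrate the islets are a source of interferon-gamma.

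The study prepared droplet single-cell RNA-seq libraries from leukocytes of hand-picked pancreatic islets, sorted as live CD45+ CD31- cells. One library came from female NOD mice and the other from female NOD.Cxcl16-/- mice, a strain on the same autoimmune background that is labelled as lacking the chemokine CXCL16. Both groups were 12 weeks old, neither received a treatment according to the labels, and how many animals were pooled for a library is not given in the sources used here. There was 1 library per genotype, so that no difference between them can be tested against variation between mice. All intervals below are 95% intervals that cover counting error only.

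Cxcl16 transcripts were as frequent in the library labelled NOD.Cxcl16-/- (10062 UMIs, 102 counts per 1000000 UMIs, CPM) as in the WT NOD library (9668 UMIs, 103 CPM). The count at this gene therefore goes against the label, and whether the counted reads lie outside the altered part of the gene cannot be seen in a table of UMIs per gene. The second library is called the library labelled NOD.Cxcl16-/- throughout. After removal of barcodes with under 500 genes or over 10% mitochondrial UMIs, 12252 WT NOD cells (median 4269 UMIs) and 10214 cells of the other library (median 5189 UMIs) remained. Ptprc, the gene of CD45, had a UMI in 76.6% and 88.5% of them, and Pecam1, the gene of CD31, in 23.0% and 27.2%. The libraries shared 45 barcodes.

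Cells were assigned by counting marker genes, which gave 16 classes. Of these, 13 had at least 50 cells in each library and were compared: CD8 T-like, CD4 T-like, Treg-like, gamma-delta T-like and other T cells (T cells with no UMI of Cd4, Cd8a, Cd8b1 or Foxp3), and NK-like, B-like, plasma cell-like, macrophage-like, cDC1-like, cDC2-like, migratory DC-like and plasmacytoid DC-like cells. DC stands for dendritic cell. Barcodes that passed for a pair of lineages (1358 and 1340) and barcodes that passed for none (1607 and 987) were set aside. The paired-lineage barcodes had medians of 15072.5 and 19494 UMIs.

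Most of the GBP genes sit in clusters in the mouse genome (GRCm38, the assembly behind mm10). Gbp5, Gbp7, Gbp3 and Gbp2 lie on the plus strand of chromosome 3 between positions 142493978 and 142638008. Gbp8, Gbp9, Gbp4 and Gbp6 lie on the minus strand of chromosome 5 between positions 105014150 and 105293698. Irgm1 lies on chromosome 11 (48861968 to 48871683, minus strand). In GENCODE M21 the annotated spans of Gbp4, Gbp8 and Gbp9 overlap each other on the same strand, and that of Gbp6 overlaps the protein-coding gene Gm43302 on the same strand, so that the split of counts among these chromosome 5 genes is uncertain. These families also hold near-identical copies, and reads that match several of them may be missing from the counts.

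Promoter sequences were available for some of the genes. Interferon regulatory factors bind repeats of GAAA. The motif searched was GAAA, 2 bases of any kind and GAAA again, which reads TTTC, 2 bases and TTTC on the other strand. RefSeq promoter windows of GRCm38.p6, from 250 bases before to 50 bases after the annotated start, were matched by symbol for 5 of the 10 genes, Gbp2, Gbp3, Gbp5, Gbp7 and Irgm1. All 5 genes held the motif in a window, against 3.99% of the 27025 genes with a window. The share was 7 of 9 (77.8%) among the other interferon-inducible GTPases and 5 of 11 (45.5%) among type I interferon-stimulated genes, and 1 of 9 (11.1%) among interferon-gamma target genes. The stretches that hold it are shown 5′ to 3′ in the direction of the gene, with the motif in capitals, because all 5 genes with a window hold the motif.
Gbp2 (chr3:142620569-142620628, plus strand): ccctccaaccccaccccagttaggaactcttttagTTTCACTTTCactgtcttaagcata
Gbp3 (chr3:142559964-142560029, plus strand): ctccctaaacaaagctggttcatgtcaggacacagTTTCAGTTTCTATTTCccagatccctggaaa
Gbp5 (chr3:142496734-142496793, plus strand): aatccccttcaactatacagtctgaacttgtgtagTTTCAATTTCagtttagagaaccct
Gbp7 (chr3:142530248-142530307, plus strand): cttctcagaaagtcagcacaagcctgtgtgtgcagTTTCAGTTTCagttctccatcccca
Irgm1 (chr11:48871421-48871485, minus strand): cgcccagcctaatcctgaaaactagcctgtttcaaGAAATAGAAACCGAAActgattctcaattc

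The 4 GBP genes carried the motif in its TTTC form and Irgm1 in its GAAA form. Gbp3 and Irgm1 each held 2 overlapping copies, which form 1 run of capitals above. The first base of the motif lay 59 bases before the RefSeq start in Gbp2, 45 in Gbp3, 165 in Gbp5, 53 in Gbp7 and 30 in Irgm1. The GENCODE M21 spans of Gbp2, Gbp5 and Irgm1 begin further upstream, at 142620602, 142493978 and, on the minus strand, 48871683. In these 3 genes the motif thus lies inside the GENCODE span. A motif match describes letters in a window and does not show that a factor is bound there.

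Over all kept cells the 10 genes together made up 440 CPM in the WT NOD library (40696 UMIs) and 470 CPM in the library labelled NOD.Cxcl16-/- (46256 UMIs). Their summed level varied 8.002-fold between the highest and lowest of the compared classes, by the mean of the libraries, and at most 1.63-fold between the libraries within a class. It was 1083 CPM (interval 1011 to 1159) and 891 CPM (850 to 934) in macrophage-like cells and 129 CPM (112 to 148) and 118 CPM (105 to 131) in plasma cell-like cells, the ends of that range. Migratory DC-like cells followed at 789 and 811 CPM, then gamma-delta T-like cells at 570 and 914 CPM and Treg-like cells at 680 and 635 CPM. CD4 T-like cells were at 433 and 432 CPM, CD8 T-like cells at 315 and 315 CPM and B-like cells at 306 and 296 CPM. In the order of the 13 classes by mean level, 3 of the 12 neighbouring pairs had library values that did not overlap, and in 2 of the 12 the counting intervals were apart in both libraries. The classes between the ends thus formed a gradient more than separate groups. CPM is a share of all UMIs, and plasma cell-like cells were deep. Their medians were 19767.5 and 23628 UMIs, against 4532.5 and 4634 in B-like cells. They held 207 UMIs of the 10 genes in 82 cells and 327 in 125, against 2847 in 1770 and 3467 in 2017 B-like cells. Their low CPM is thus a low share of UMIs, not a lower count per cell than in B-like cells. Levels by class were not computed without immunoglobulin UMIs.

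**Figure D1:**
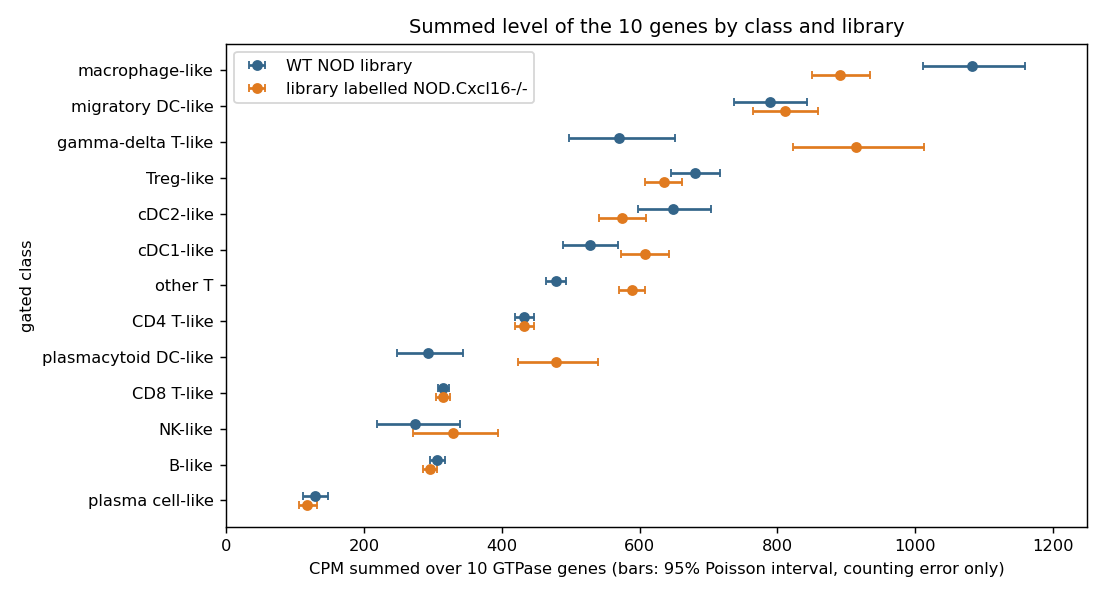
CPM summed over the 10 GTPase genes (x axis) in 13 gated classes (y axis), with 1 point per library and 95% Poisson intervals. Macrophage-like cells are highest, plasma cell-like cells lowest, and the points of the libraries lie apart most clearly in gamma-delta T-like and plasmacytoid DC-like cells.

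Classes with fewer than 50 cells in a library are given as values. Classical monocyte-like cells (13 and 12 cells) had 1419 and 1022 CPM, group 2 innate lymphoid cell (ILC2)-like cells (44 and 81 cells) had 762 and 721 CPM, and nonclassical monocyte-like cells (35 and 56 cells) had 554 and 389 CPM. In the ILC2-like cells Gbp6 was at 103 and 120 CPM and Gbp7 at 123 and 125 CPM, and Iigp1 was at 211 and 87.0 CPM. In the classical monocyte-like cells Gbp2 was at 334 and 253 CPM, Gbp5 at 365 and 304 CPM and Irgm1 at 125 and 144 CPM. These values were above the highest means of the compared classes, 246, 211 and 89.3 CPM. They came from 12 to 36 UMIs per gene and library.

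The chromosome 3 genes were highest in myeloid cells, except for Gbp7, where a highest class is the one with the highest mean of the libraries. Gbp2, a GBP that targets bacteria and their vacuoles in the cytosol, was at 244 CPM (211 to 282) and 224 CPM (204 to 246) in macrophage-like cells and at 219 CPM (193 to 249) and 273 CPM (247 to 302) in migratory DC-like cells. It was at 145 and 186 CPM in cDC1-like cells, 37.6 and 41.2 CPM in CD8 T-like cells and 11.8 and 17.7 CPM in plasma cell-like cells. Every macrophage-like and DC-like class other than the plasmacytoid one was above every lymphoid class in both libraries for this gene. To compare classes at equal depth, each cell was thinned to 2000 UMIs, and cells with fewer were left out. After thinning, Gbp2 was detected in 34.8% and 31.9% of macrophage-like cells and in 8.43% and 9.29% of CD8 T-like cells, and without thinning in 54.1% and 54.0% of the former and 18.5% and 20.95% of the latter.

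Gbp5, which promotes assembly of the NLRP3 inflammasome, had the widest range between classes of the chromosome 3 genes. It was at 228 CPM (195 to 264) and 173 CPM (155 to 193) in macrophage-like cells and 243 CPM (215 to 274) and 178 CPM (157 to 202) in migratory DC-like cells. In plasma cell-like cells it was at 7.47 and 9.01 CPM, and the mean of the highest class was 25.6 times that of the lowest. Gbp3 was highest in macrophage-like cells, at 117 CPM (94.1 to 144) and 122 CPM (107 to 138), and was at 20.8 and 27.8 CPM in gamma-delta T-like cells. In both genes the macrophage-like values of both libraries lay above those of every T-like class.

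Gbp7, whose product takes part in oxidative and autophagic defence against intracellular bacteria, had another order. It was highest in Treg-like cells, at 127 CPM (112 to 143) and 122 CPM (111 to 134), and was at 91.1 and 151 CPM in gamma-delta T-like cells and 109 and 86.3 CPM in macrophage-like cells. In migratory DC-like cells, where Gbp2 and Gbp5 were highest, Gbp7 was at 22.7 and 41.8 CPM. After thinning, 25% and 23.7% of Treg-like cells and 11.0% and 11.9% of CD8 T-like cells had a Gbp7 UMI.

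The 4 chromosome 5 genes each had their highest mean in gamma-delta T-like cells, subject to the overlap of their annotations, and then differed in order. Gbp6 showed the sharpest difference between classes. It was at 78.1 CPM (52.7 to 112) and 164 CPM (127 to 209) in gamma-delta T-like cells, 41.9 and 42.0 CPM in Treg-like cells and 37.7 and 25.5 CPM in macrophage-like cells. In the WT NOD library it had 1 UMI in cDC1-like, 0 UMIs in cDC2-like and 1 UMI in migratory DC-like cells. In the library labelled NOD.Cxcl16-/- these classes had 3, 4 and 3 UMIs, so that no level was above 2.12 CPM, although the same cells carried the other GBP genes. With 0 of 68 and 0 of 143 thinned cDC2-like cells, the upper limits of the share with a UMI were 5.28% and 2.55%. These DC-like values also show how little Gbp6 RNA from other cells reached these barcodes.

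Gbp4 was highest in gamma-delta T-like cells, at 57.3 CPM (35.9 to 86.7) and 111 CPM (80.7 to 149), and lowest in cDC1-like cells, at 6.87 and 21.04 CPM. Gbp8 was at 91.02 CPM (71.0 to 115) and 49.0 CPM (39.7 to 59.9) in macrophage-like cells and 78.1 and 85.8 CPM in gamma-delta T-like cells. In cDC2-like cells Gbp8 was at 54.1 and 55.9 CPM, against 39.0 and 34.1 CPM in Treg-like cells, with intervals that overlapped in the WT NOD library. Gbp9 varied least, with a highest class mean 5.46 times its lowest, and was at 24.7 and 12.8 CPM in macrophage-like cells. For Gbp4, Gbp8 and Gbp9 no neighbouring classes in the order of levels had counting intervals apart in both libraries.

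Of the IRGs, the effector Iigp1 (chromosome 18, positions 60376027 to 60392634, plus strand) was highest in Treg-like cells, at 126 CPM (111 to 142) and 113 CPM (102 to 125), against 19.5 and 21.6 CPM in CD8 T-like cells. It was at 101 and 92.5 CPM in macrophage-like cells. No Iigp1 UMI was found in the 72 and 80 NK-like cells, whose 302887 and 356138 UMIs in all give upper Poisson limits of 12.2 and 10.4 CPM, although Gbp7 in the same cells was at 82.5 and 73.0 CPM. With NK-like cells taken at 2 instead of 3 markers, a setting chosen after seeing this value, Iigp1 was at 22.3 CPM (10.2 to 42.4) in 99 WT NOD cells (9 UMIs) and at 0 UMIs in 87 cells of the other library. The absence in the WT NOD library thus depended on the marker minimum. Irgm1 was highest in cDC1-like cells, at 96.9 CPM (80.8 to 115) and 81.7 CPM (69.6 to 95.2), and B-like cells had 76.3 CPM (70.8 to 82.1) and 77.2 CPM (72.2 to 82.4). In B-like cells Irgm1 was thus above its values in CD8 T-like cells (36.1 and 32.4 CPM), while Gbp5 was at 19.4 and 19.7 CPM.

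**Figure D2:**
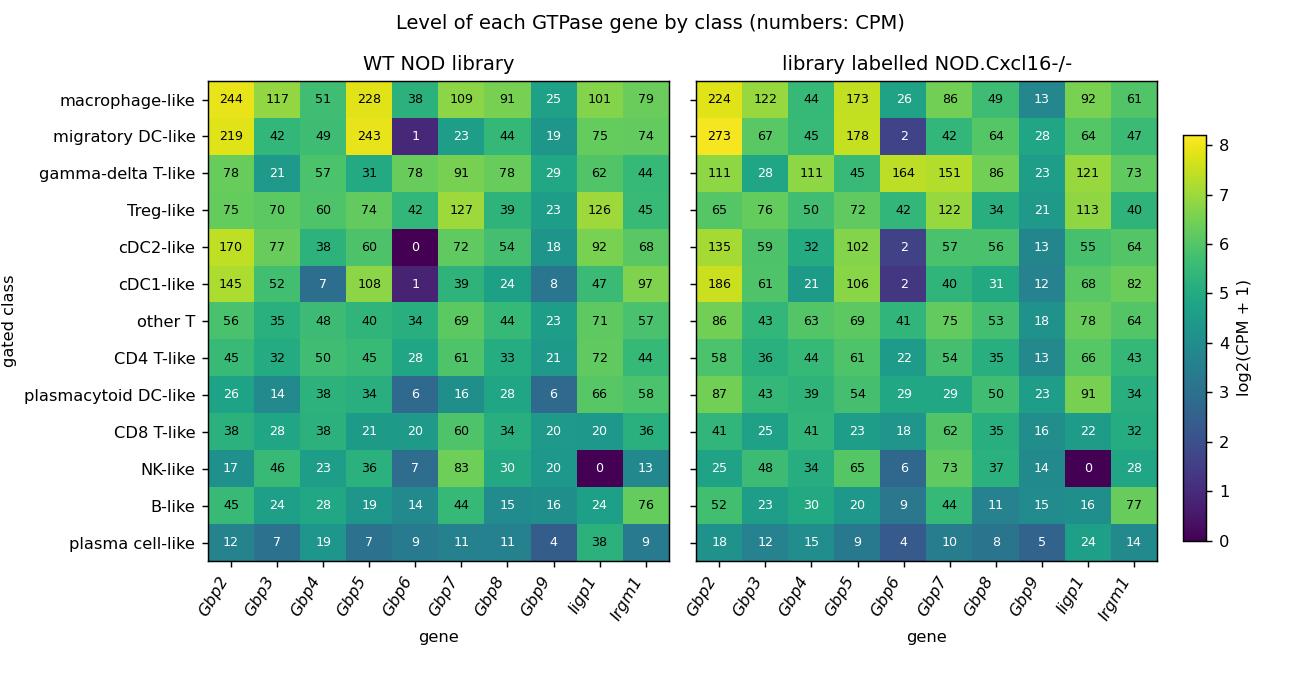
Level of each of the 10 genes (x axis) in 13 classes (y axis, ordered by the summed level) in each library, coloured by log2(CPM + 1) with the CPM printed in each cell. Gbp2 and Gbp5 are brightest in macrophage-like and migratory DC-like cells, Gbp6 is at 0 to 2 CPM in cDC1-like, cDC2-like and migratory DC-like cells, and Iigp1 is at 0 in NK-like cells.

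Low levels were read against RNA from other cells. Cxcl9, a chemokine of interferon-gamma-treated myeloid cells, was at 3275 and 3547 CPM in macrophage-like cells and still at 34.4 and 11.1 CPM in CD8 T-like cells. Free RNA and barcodes that hold more than 1 cell can thus add UMIs, and the levels of Gbp2 and Gbp5 in lymphoid cells may contain such UMIs. Their part was not tested.

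The number of the 10 genes detected in a thinned cell gave another order than the summed level. At least 3 of them had a UMI in 21.2% and 16.3% of macrophage-like cells, 16.9% and 17.3% of Treg-like cells and 15.4% and 24.4% of gamma-delta T-like cells. Migratory DC-like cells, second by summed level, had shares of 10.1% and 15.5%, and cDC2-like cells 7.35% and 9.79%, below the shares of Treg-like cells. The shares were 5.30% and 5.05% in CD8 T-like cells and 2.88% and 2.76% in B-like cells. No plasma cell-like cell had 3, of 78 and 119 thinned cells, which allows shares of up to 4.62% and 3.05%. Thinning to equal depth also reads the share of a cell's UMIs and not its count. With any of the 10 counted, 63.97% and 65.95% of thinned Treg-like cells and 44.6% and 44.5% of thinned CD8 T-like cells had a UMI.

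**Figure D3:**
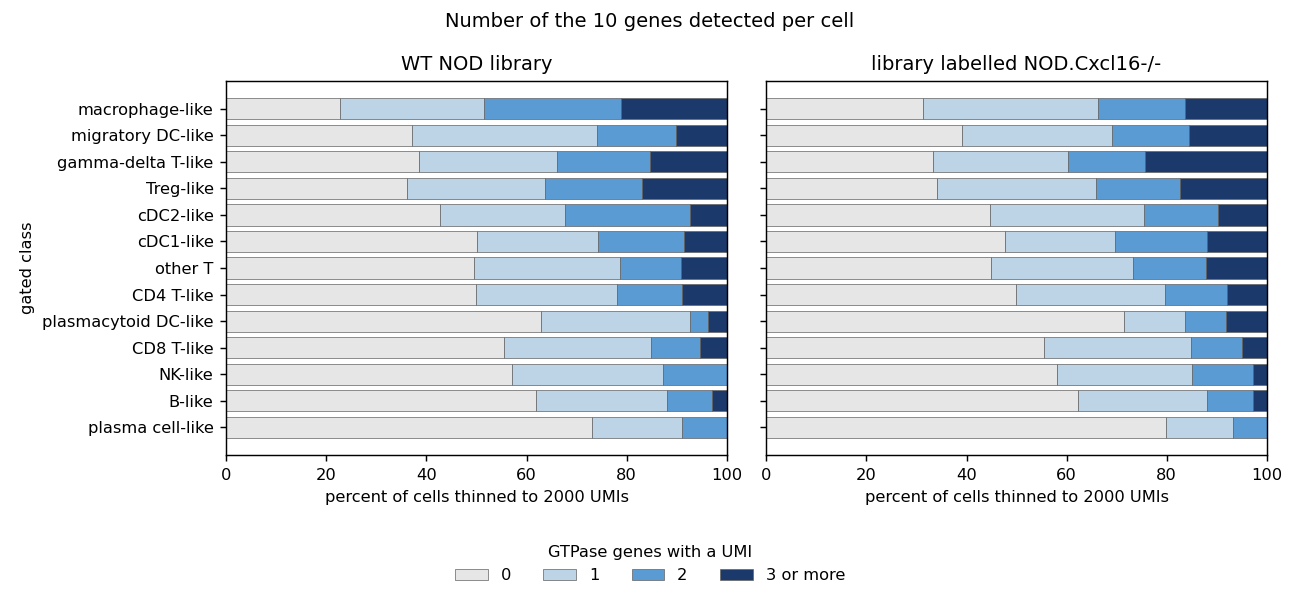
Percent of cells thinned to 2000 UMIs (x axis) with a UMI of 0, 1, 2 or at least 3 of the 10 genes, by class (y axis) and library. The darkest bars, at least 3 genes, are longest in macrophage-like cells in the WT NOD library (21.2%). In the library labelled NOD.Cxcl16-/- they are longest in gamma-delta T-like cells (24.4%). They are absent in plasma cell-like cells of both libraries and in WT NOD NK-like cells.

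Across the 28 class-by-library sums with at least 50 cells (the 13 compared classes and, from the library labelled NOD.Cxcl16-/- alone, ILC2-like and nonclassical monocyte-like cells), some pairs of genes had like patterns and others did not. Pearson's r of log2(CPM + 1) was 0.85 for Gbp3 and Gbp5, 0.84 for Gbp2 and Gbp5, 0.74 for Gbp2 and Irgm1, 0.73 for Gbp7 and Gbp9, and 0.69 for Gbp4 and Gbp6. Gbp8 had r from 0.64 to 0.69 with each of Gbp2, Gbp4, Gbp5, Gbp7 and Gbp9. Gbp6 had r of -0.14, -0.08 and -0.16 with Gbp2, Gbp3 and Gbp5. Gbp7 had r of 0.85 with Ifngr1, a chain of the interferon-gamma receptor, a pair picked after the data had been seen. Each point shares its library and its depth with others, so these are descriptions.

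Among 9703 other genes, those most like the mean of the 10 by the same measure were Srgap2 (0.87), Mdfic (0.87), Il2ra (0.82), Parp14 (0.82) and Stx4a (0.80). Il2ra also served as a Treg marker. For single genes, the 3 most alike were Nampt, Tax1bp3 and 8030456M14Rik for Gbp2, N4bp1, Dbndd2 and Lilrb4a for Gbp3, and Rapgef2, Dbndd2 and Rhog for Gbp5, with r from 0.87 to 0.92. They were H2-Q4, Plgrkt and Znrf1 for Gbp4 (0.76 to 0.77), Tex264, Il12rb1 and Maf for Gbp6 (0.83 to 0.88), and Hivep2, Rap1gds1 and Fosl2 for Gbp7 (0.87 to 0.88). They were Arrb2, Sgk1 and Rtp4 for Gbp8 (0.85 to 0.87), Mllt6, Usp47 and Vopp1 for Gbp9 (0.81 to 0.85), Hs6st1, Plin3 and Abca3 for Iigp1 (0.83 to 0.86), and Parp9, Med13l and Notch2 for Irgm1 (0.81 to 0.83).

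The comparison of genotypes was made within each class, as the log2 ratio of CPM plus 1 with the WT NOD value as the denominator. A gene was called where it had at least 20 UMIs in all and differed by at least 1.5-fold, a rule of size and not a test. Of the 130 pairs of gene and class, 118 had enough UMIs, 17 were called higher than in WT NOD and 9 were called lower. The counting interval left 0 in 12 of the 17 and 8 of the 9.

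In CD8 T-like, CD4 T-like, Treg-like and B-like cells the summed level of the GTPase genes was close to equal. In CD8 T-like cells the summed level was 314.6 and 314.5 CPM, with an interval of the log2 ratio from -0.06 to 0.06. None of the 10 genes was called there, where 2.05% of 12493 genes were called higher and 2.57% lower, and the single ratios ran from -0.37 for Gbp9 to 0.14 for Iigp1. In CD4 T-like cells the sum had an interval from -0.07 to 0.06. Only Gbp9 was called there, lower at 13.4 against 20.8 CPM (log2 ratio -0.60, interval -0.93 to -0.27, backgrounds 3.63% lower and 1.86% higher). Gbp5, at 60.5 against 45.2 CPM (0.41, 0.22 to 0.60), and Gbp2, at 58.4 against 45.5 CPM (0.35, 0.16 to 0.55), were above 0 but under 1.5-fold. In Treg-like cells 0 of 10 genes were called, against backgrounds of 5.53% higher and 5.29% lower, and the ratio of all members was -0.10 (-0.20 to -0.0026), or 0.010 with equal weight per cell.

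In B-like cells the summed ratio was -0.05 (-0.12 to 0.02) and 1 of 10 genes was called. This was Gbp6, lower at 8.53 against 14.3 CPM (-0.68, -1.04 to -0.33, backgrounds 2.57% lower and 3.52% higher), and Iigp1 was next at 15.8 against 23.9 CPM (-0.57, -0.84 to -0.30), just under 1.5-fold. In plasma cell-like cells Gbp6 (3.96 against 9.34 CPM) and Iigp1 (23.8 against 38.0 CPM) were called lower, 2 of 10 against a background of 5.89% lower (19.2% higher), at 26 and 127 UMIs in all. In the latter class Iigp1 was at a log2 ratio of 0.14 when each cell had equal weight.

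In the T cells without a Cd4 or Cd8 UMI, the summed level was 589 CPM (570 to 608) against 479 CPM (464 to 494). The log2 ratio was 0.30 (0.23 to 0.36). Gbp5, at 69.4 against 40.4 CPM, and Gbp2, at 85.8 against 56.3 CPM, were called higher, 2 of 10 against a background of 2.71% higher (5.92% lower). Of the other 8 genes 7 were above 0, and Gbp9 was below. These cells differed in depth, with medians of 3824 and 2977 UMIs, and the class is defined by missing UMIs of Cd4 and Cd8, so that its makeup can move with depth. After thinning, 55.0% and 50.5% of its cells had a UMI of any of the 10 genes.

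**Figure D4:**
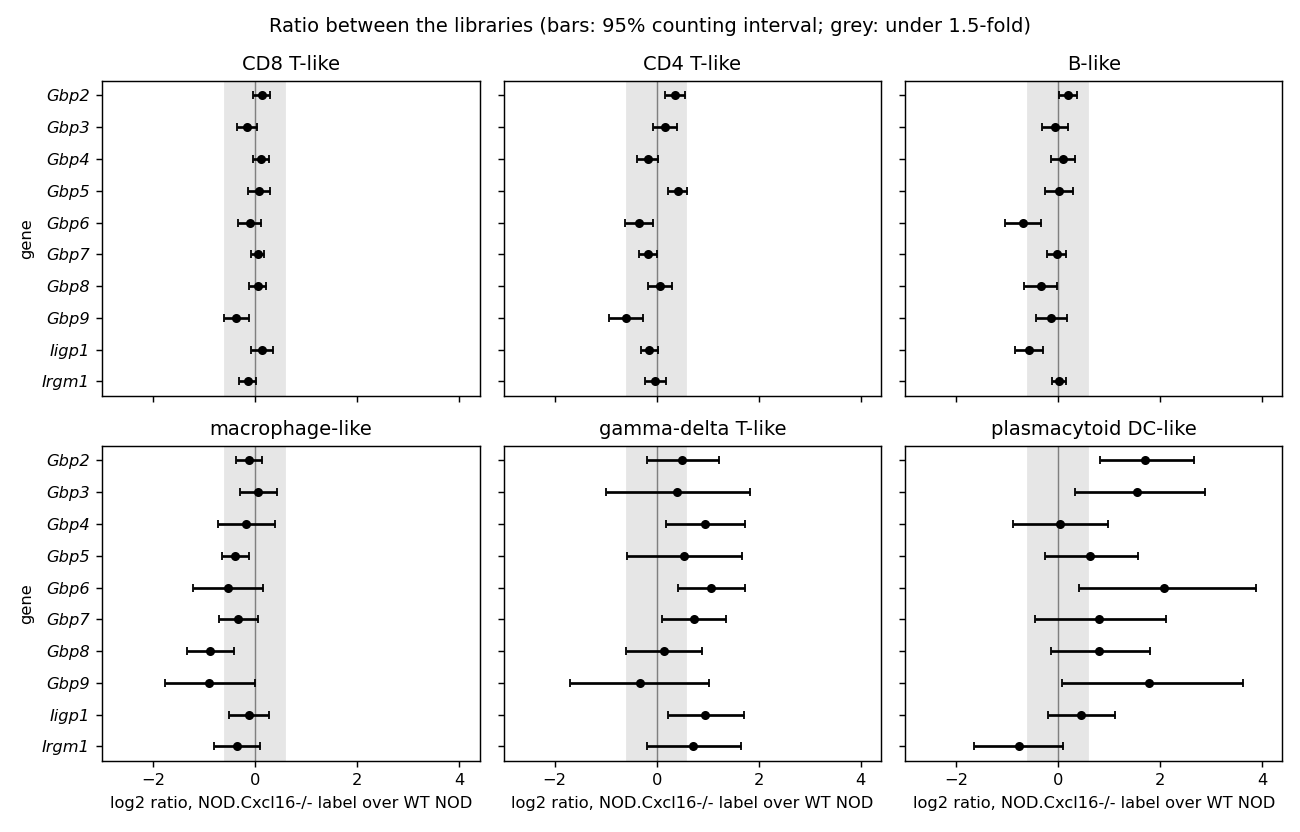
Log2 ratio of CPM + 1, library labelled NOD.Cxcl16-/- over WT NOD (x axis), for each of the 10 genes (y axis) in 6 classes, with 95% counting intervals and a grey band for differences under 1.5-fold. In CD8 T-like cells every point lies in the band, and in gamma-delta T-like and plasmacytoid DC-like cells 9 of 10 points lie above 0.

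Gamma-delta T-like cells had the higher summed level in the library labelled NOD.Cxcl16-/-, 914 CPM (822 to 1013; 362 UMIs in 78 cells) against 570 CPM (497 to 651; 219 UMIs in 70 cells), at nearly equal median depth (4539 and 4537.5 UMIs). Of the 9 genes with enough UMIs, 5 were called higher, and 0 lower, against backgrounds of 18.2% and 8.16% of 5046 genes. They were Gbp6 (164 against 78.1 CPM; log2 ratio 1.06, 0.42 to 1.73), Iigp1 (121 against 62.5 CPM; 0.94, 0.22 to 1.70), Gbp4 (111 against 57.3 CPM; 0.94, 0.18 to 1.74), Gbp7 (151 against 91.1 CPM) and Irgm1 (73.2 against 44.3 CPM). Gbp8 was alike at 85.8 and 78.1 CPM. The median log2 ratio of the 9 genes was 0.71, against 0.12 over all genes tested in the class.

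Few cells carried part of that difference. In the library labelled NOD.Cxcl16-/-, 4 gamma-delta T-like cells with UMIs of at least 3 type I interferon-stimulated genes (ISGs) held 83 of the 362 UMIs, and in the WT NOD library 2 such cells held 15 of 219. The remaining 74 and 68 cells were at 740 CPM (656 to 833) and 563 CPM (489 to 646). Their log2 ratio was 0.39, under 1.5-fold. With 1 more marker required for the class the ratio of all members was 0.94, and Gbp7 was then at -0.11. The makeup of the class in each library was not tested.

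Plasmacytoid DC-like cells, the main makers of type I interferon, were at 479 CPM (423 to 539; 268 UMIs in 53 cells) against 293 CPM (247 to 344; 146 UMIs in 64 cells). Of 8 genes with enough UMIs, 5 were called higher and 1 lower, against backgrounds of 12.7% and 11.5% of 6200 genes. Gbp2 was at 87.5 against 26.1 CPM (log2 ratio 1.71, 0.83 to 2.67) and Gbp3 at 42.9 against 14.0 CPM (1.54, 0.34 to 2.87). Gbp8, Gbp7 and Gbp5 were also called higher, and Irgm1 was called lower at 33.9 against 58.1 CPM, with intervals that included 0. Gbp8 was at -1.76 after thinning, and Irgm1 at 0.050 with paired-lineage barcodes kept.

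That difference was held by cells with ISGs. In the library labelled NOD.Cxcl16-/-, 10 plasmacytoid DC-like cells with at least 3 ISGs held 199 of the 268 UMIs, and in the WT NOD library 10 such cells held 75 of 146. Their levels were 1043 and 633 CPM, whereas the other 43 and 54 cells were at 187 and 187 CPM. Markers of macrophages moved with this result. In the 10 cells of the library labelled NOD.Cxcl16-/- the 6 macrophage markers summed to 2926 CPM, and in the 10 WT NOD cells to 84.4 CPM, against 271 and 15.8 CPM in the other plasmacytoid DC-like cells. In the library labelled NOD.Cxcl16-/-, 4 cells had UMIs of at least 2 macrophage markers and held 76 of the UMIs, and no WT NOD cell had. Without these 4, a setting chosen after seeing the data, the log2 ratio of all members was 0.52, under 1.5-fold, and Gbp7 was at -1.18. After thinning it was 0.0405 for all members. Cxcl9 was at 857 and 130 CPM in the class as a whole, and 1 cell alone held 58 of the 268 UMIs.

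Differences in the other myeloid classes were mixed. In macrophage-like cells the summed log2 ratio was -0.28 (-0.40 to -0.16), and 9 of the 10 genes were below 0. Gbp8 (49.0 against 91.02 CPM; -0.88, -1.33 to -0.42) and Gbp9 (12.8 against 24.7 CPM; -0.90, -1.76 to -0.0097) were called lower, 2 of 10 against backgrounds of 10.6% lower and 11.4% higher, and their annotations overlap. In cDC2-like cells Gbp5 was higher at 102 against 59.7 CPM (0.76, 0.32 to 1.22) and Iigp1 lower at 55.4 against 92.4 CPM (-0.73, -1.15 to -0.30), with backgrounds of 9.04% and 8.62%. Without cells with at least 3 ISGs, Iigp1 in this class was at 0.14. Gbp5 went the other way in migratory DC-like cells, at 178 against 243 CPM (-0.44, -0.70 to -0.19), a difference under 1.5-fold.

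In migratory DC-like cells Gbp3 (67.2 against 41.7 CPM) and Gbp7 (41.8 against 22.7 CPM) were called higher and Irgm1 (47.4 against 74.3 CPM) lower, with backgrounds of 9.33% and 10.2%, and the sum was alike (0.04, -0.09 to 0.17). With 1 more marker required, the sum over all members was at 0.77 in this class, past 1.5-fold. In cDC1-like cells Gbp4 was called higher at 21.04 against 6.87 CPM (1.49, 0.52 to 2.52; backgrounds 8.62% higher and 7.91% lower) from 51 UMIs in all. In NK-like cells 4 genes had enough UMIs, and Gbp5 was called higher at 64.6 against 36.3 CPM with an interval that included 0, and at a ratio of -0.23 after thinning (backgrounds 12.4% higher and 9.71% lower). Each of these counts is 1 or 2 genes, and no pattern over the 10 genes is read from them.

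The GTPase genes were set beside fixed lists of the interferon pathway. In the classes with at least 200 cells per library, the 12 type I ISGs were lower in the library labelled NOD.Cxcl16-/-. Called lower were 7 of 11 in each of CD8 T-like, CD4 T-like and other T cells, 7 of 10 in B-like and 5 of 6 in Treg-like cells. None was called higher. Backgrounds in these classes were 2.57% to 5.92% lower and 1.86% to 5.53% higher. The median log2 ratios of the list were -1.06, -0.74, -0.95, -0.80 and -1.37, where those of all genes tested were from 0.01 to 0.04. Ifit3, which encodes an antiviral protein, was at 6.77 against 20.9 CPM in CD8 T-like cells and 3.18 against 21.9 CPM in Treg-like cells. Isg15, a ubiquitin-like modifier, was at 29.2 against 63.7 CPM in Treg-like cells. Medians of the 10 GTPase genes in the same classes, in the same order, were 0.05, -0.09, 0.25, -0.04 and -0.15. Other classes were mixed. In plasmacytoid DC-like cells 3 of 7 ISGs were called higher and none lower, and in plasma cell-like cells 1 of 2 higher. Migratory DC-like cells had 2 of 9 called each way, and cDC1-like cells 1 higher and 3 lower of 9. In macrophage-like (3 of 11), cDC2-like (3 of 10) and gamma-delta T-like cells (1 of 2) calls were lower only. NK-like cells had none. Backgrounds in these classes were 5.89% to 11.5% lower and 8.62% to 19.2% higher.

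In CD8 T-like, CD4 T-like, Treg-like, other T and B-like cells, at most 2 genes of each list tied to interferon-gamma were called. Backgrounds in these classes were 2.57% to 5.92% lower and 1.86% to 5.53% higher. None of the 8 signalling genes, among them Ifng and its receptor chains, was called in CD8 T-like, CD4 T-like, Treg-like or other T cells, and in B-like cells Ifng itself was called lower at 0.768 against 3.55 CPM. Of the interferon-gamma target genes, 2 of 12 with enough UMIs were called lower in CD8 T-like cells, Cxcl9 and Ciita (background 2.57% lower). The same 2 of 12 were called lower in the other T cells (background 5.92% lower), and none in CD4 T-like cells. Cxcl9, read above as a gene of other cells, was called higher in Treg-like cells (27.2 against 6.66 CPM), 1 of 11 against a background of 5.53% higher.

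The other interferon-inducible GTPases, of which 13 of 15 were in the files, were read next. In CD8 T-like cells 0 of 12 with enough UMIs were called. Igtp (86.1 against 54.4 CPM) and Irgm2 (54.8 against 35.7 CPM), regulatory IRGs like Irgm1, were called higher in the other T cells, where Gbp2 and Gbp5 were too. These were 2 of 13 against a background of 2.71% higher. In Treg-like cells F830016B08Rik, Tgtp2 and Gm4070 were called lower, 3 of 11 against a background of 5.29% lower. The interval of Gm4070 included 0 (-1.46 to 0.07). Gbp10, a close relative of Gbp6, was called lower in CD4 T-like (1.23 against 2.81 CPM) and B-like cells (0.768 against 2.69 CPM), the latter together with Gbp6. It was 1 of 13 in each class, against backgrounds of 3.63% and 2.57% lower. Of 12 genes that act with these proteins in inflammasomes and autophagy, none was called in CD8 T-like, CD4 T-like, Treg-like or B-like cells. Nlrp3 was called lower in the other T cells (5.29 against 11.3 CPM), 1 of 12 against a background of 5.92% lower.

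Within each library the GTPase genes were higher in cells with UMIs of several ISGs. Cells with UMIs of at least 3 of the 12 ISGs, none of which is among the 10 genes, were 178 of 2719 CD8 T-like cells (6.55%) in the WT NOD library and 52 of 1556 (3.34%) in the other. The 10 genes together were at 567 CPM (534 to 601) in those WT NOD cells and at 285 CPM (277 to 293) in the rest, a ratio of 1.99 (1.86 to 2.12). In the library labelled NOD.Cxcl16-/- they were at 596 against 303 CPM, a ratio of 1.97 (1.74 to 2.21). In both libraries each of the 10 genes was above 1 in this ratio, from 1.48 for Gbp5 to 2.49 for Gbp6 in the WT NOD library and from 1.24 for Gbp4 to 3.96 for Iigp1 in the other. Such cells were deeper, with medians of 7143.5 against 4668 UMIs in the WT NOD library, and deeper cells more easily show 3 ISGs.

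The summed level was also higher in such cells in the other classes with at least 20 of them. The ratio of the summed level was 2.26 and 2.18 in CD4 T-like cells, 2.58 and 2.33 in the other T cells, 1.61 and 2.18 in macrophage-like cells and 2.05 and 2.22 in cDC2-like cells. It was 1.73 and 1.69 in cDC1-like cells and 1.81 and 1.79 in migratory DC-like cells, and 2.11 in Treg-like and 1.79 in B-like cells of the WT NOD library, where alone enough such cells were found. Gbp2 had a ratio of 4.36 and 3.46 in the other T cells and of 1.23 and 1.84 in macrophage-like cells. Single genes were below 1 in 3 of these classes. They were Gbp9 in macrophage-like cells of both libraries (0.56 and 0.78) and, in the WT NOD library, Gbp8 in macrophage-like (0.84), Gbp5 in Treg-like (0.74) and Gbp4 in B-like cells (0.62). Iigp1 was at 2.79 and 4.81 in macrophage-like cells. Macrophage-like cells with at least 3 ISGs were much deeper, with medians of 12984 against 2247 UMIs in WT NOD and 14959 against 5803 in the other library. Their 6 T-cell markers summed to 34.9 against 313 CPM in WT NOD and to 52.7 against 151 CPM in the other library. The part of depth and of RNA from other cells in the macrophage-like ratios was not tested. A panel of pan-myeloid markers moved with the division in several lymphoid classes. The 6 pan-myeloid markers summed to 2980 against 711 CPM in WT NOD CD4 T-like cells and to 2064 against 625 CPM in those of the other library. They summed to 2669 against 1083 CPM and 1614 against 801 CPM in the other T cells and to 2220 against 1256 CPM in WT NOD B-like cells. In CD8 T-like cells they summed to 901 against 494 CPM and 447 against 460 CPM, and in WT NOD Treg-like cells to 778 against 882 CPM, beside GTPase ratios of 1.99, 1.97 and 2.11. Of these 6 markers, 4 were found in at least 20% of B-like cells and 3 in at least 20% of CD4 T-like and other T cells. The 6 macrophage markers summed to 25.6 against 13.2 CPM in WT NOD CD4 T-like cells and to 28.8 against 17.7 CPM in those of the other library. They summed to 55.6 against 24.5 CPM and 13.2 against 31.0 CPM in the other T cells and to 8.92 against 9.48 CPM in WT NOD B-like cells. In CD4 T-like, other T and B-like cells the part of myeloid RNA in the ratios was not tested. No NK-like cell had 3 ISGs. Cells of 1 library are not replicates, and these ratios describe each library by itself.

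**Figure D5:**
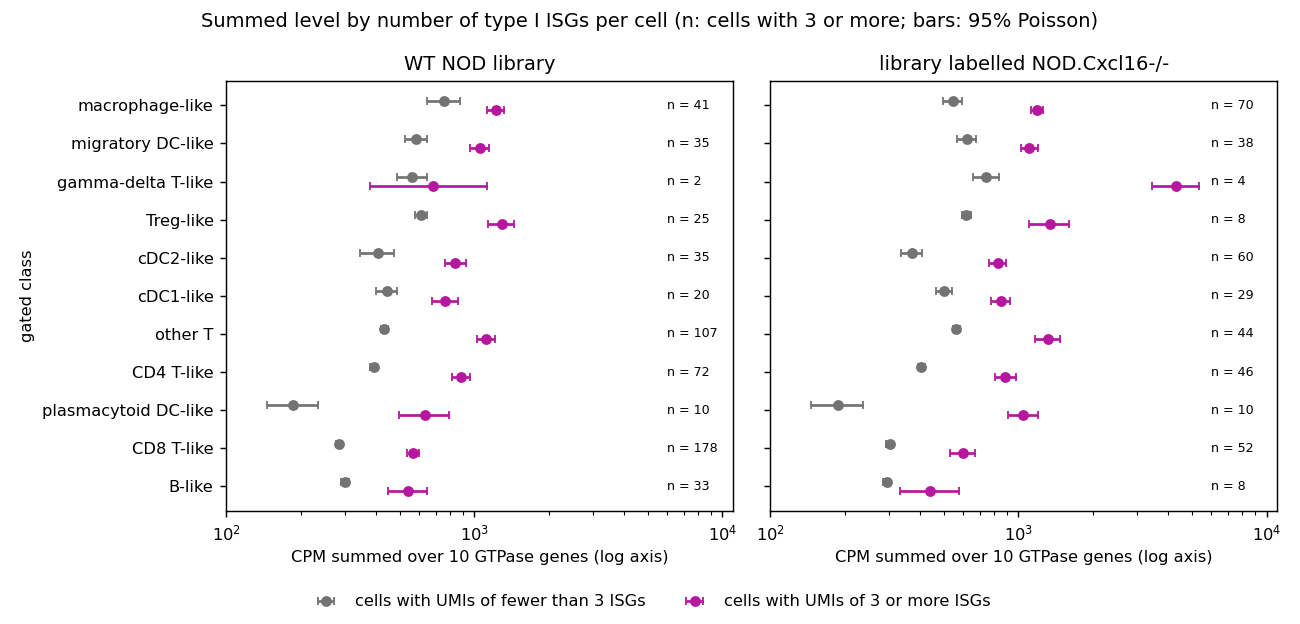
CPM summed over the 10 genes (x axis, log scale) in cells with UMIs of fewer than 3 (grey) or at least 3 (magenta) of 12 type I ISGs, by class (y axis) and library, with 95% Poisson intervals and the number of cells with at least 3 printed at the right. The magenta points lie to the right of the grey ones in each class shown, from 2 cells in WT NOD gamma-delta T-like cells to 178 in WT NOD CD8 T-like cells.

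Among cells with fewer than 3 ISGs the libraries were close in CD8 T-like, Treg-like and B-like cells and apart in the other T cells. CD8 T-like cells of this kind were at 285 and 303 CPM (log2 ratio 0.09), Treg-like cells at 611 and 616 CPM and B-like cells at 301 and 294 CPM. For the other T cells of this kind the values were 434 CPM (419 to 448) and 562 CPM (544 to 581), the WT NOD library first. In the same order, macrophage-like cells were at 755 CPM (645 to 877) and 544 CPM (496 to 594). Gamma-delta T-like cells were at 563 CPM (489 to 646) and 740 CPM (656 to 833). The share of cells with at least 3 ISGs was 8.47% and 1.86% in Treg-like cells and 1.86% and 0.40% in B-like cells.

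Myeloid cells were also divided by Cxcl9, a division chosen after the data had been seen. Macrophage-like cells with a Cxcl9 UMI had a summed GTPase level of 1144 and 1006 CPM, and those without had 439 and 408 CPM. In cDC2-like cells the levels were 866 and 705 CPM with and 267 and 293 CPM without a Cxcl9 UMI, at medians of 13313.5 and 12655.5 against 11686 and 12656.5 UMIs. In migratory DC-like cells they were 949 and 913 CPM against 356 and 358 CPM. The cDC1-like cells differed less in the WT NOD library, at 536 against 469 CPM, than in the other, at 652 against 332 CPM, and the cells without Cxcl9 numbered 11 and 23. In macrophage-like cells the cells without Cxcl9 were shallower, with medians of 2393 against 10713 UMIs in the WT NOD library.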

How the data were processed

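The authors deposited 1 matrix of raw UMI counts per library, with gene and barcode lists, made with Cell Ranger 7.0.1 per the file headers and on mm10 per the submitters' processing notes. The annotation release and the use of intronic reads are not given in the sources used here, and reads that match several genes may have been left out of the deposited counts. Counts were used as deposited. Depth was 93553185 UMIs over 13859 barcodes for WT NOD and 98681133 UMIs over 10554 barcodes for the library labelled NOD.Cxcl16-/-. No barcode had under 500 UMIs. Barcodes with under 500 genes (1582 and 311) or over 10% mitochondrial UMIs (25 and 29) were removed.

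Classes were assigned per barcode where at least 3 markers of a panel had a UMI (4 for plasma cells). Barcodes that passed for a pair of lineages were set aside, which served as the treatment of doublets, except that B-cell markers in plasma cells and myeloid markers in plasmacytoid DCs were allowed. No doublet caller was run, and doublets within a lineage remain. In each class at least 3 markers were found in 20% of its cells, except where fewer genes define it (Cd4 for CD4 T cells, Cd8a and Cd8b1 for CD8 T cells, and missing Cd4, Cd8 and Foxp3 for the other T cells). This gate is the second of 2 tried. The first set aside more barcodes as paired lineages, and the second was chosen with class sizes, marker detection and the levels of the 10 genes by class in view. The members, the gene lists and the rules were chosen with earlier results of these data known.

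UMIs were summed per class and library. CPM intervals are exact Poisson, shares exact Clopper-Pearson at 95%, and intervals of ratios come from the exact conditional binomial, with 1 CPM added to both levels. They cover counting error only. With 1 library per group no test was made. Named genes were all 10 members, at most 5 genes per fixed list and class called in classes of at least 200 cells per library, and the genes of at least 5 CPM closest in Pearson correlation (5 to the mean, 3 to each member). ISG ratios need at least 20 cells. The calls and intervals were run on simulated Poisson counts drawn from the CD8 T-like and macrophage-like sums. Such counts hold no clumping of UMIs in single cells, so the run does not show that the intervals hold for these data. Of 32285 gene IDs, 32158 were in GENCODE M21, which gave positions, and RefSeq (GRCm38.p6) gave promoters. Alternatives were 1 more marker, thinning to 2000 UMIs, at least 200 genes, paired-lineage barcodes kept, equal weight per cell, 10 CPM added, 2-fold, at least 50 UMIs, without immunoglobulin, receptor, mitochondrial and ribosomal UMIs, without ISG cells, at least 4 ISGs and thinning to 1000 UMIs. Python 3.11.15, numpy 2.4.6, scipy 1.17.1, pandas 2.3.3 and matplotlib 3.10.9 were used.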

Additional observations from a re-analysis of the deposited data

Results flagged for a closer look

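Gbp6 and Iigp1 were called 1.5-fold in opposite directions in different classes, with counting intervals that left 0. WT NOD was the denominator. Without the 1.5-fold rule other genes also had intervals on opposite sides of 0. Among them were Gbp5 (0.77 in the other T cells, -0.39 in macrophage-like cells) and Gbp2 (0.60 in the other T cells, -0.33 in cDC2-like cells). Gbp8 was another (0.26 in the other T cells, -0.88 in macrophage-like cells). Gbp6 was at a log2 ratio of 1.06 in gamma-delta T-like cells, -0.68 in B-like cells and -1.06 in plasma cell-like cells. Iigp1 was at 0.94 in gamma-delta T-like cells, -0.65 in plasma cell-like cells and -0.73 in cDC2-like cells. With 1 library per group the difference between classes was not tested.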

How the results depend on the processing

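Of 1287 values of single genes under an alternative, 1216 stayed within the counting interval of the main value and 63 moved out of it. The other 8 belonged to called genes and changed direction. A change of direction was counted for called genes only, so uncalled genes that changed sign are among the 1216 or the 63. Called genes that changed direction were Gbp5 in NK-like cells (-0.23) and Gbp8 in plasmacytoid DC-like cells (-1.76) after thinning, Gbp7 in gamma-delta T-like cells with 1 more marker (-0.11), Gbp7 in plasmacytoid DC-like cells without the cell with most GTPase UMIs (-0.36) or without barcodes with 2 or more macrophage markers (-1.18), Iigp1 in plasma cell-like cells with equal weight per cell (0.14), Iigp1 in cDC2-like cells without ISG cells (0.14), and Irgm1 in plasmacytoid DC-like cells with paired-lineage barcodes kept (0.050). Both settings that leave out cells for Gbp7 were chosen after seeing the data. The cause was not tested.

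Of 130 values for the sum of all members, 112 stayed within the interval and 18 moved. Without ISG cells the log2 ratios were 0.088 in CD8 T-like, 0.011 in Treg-like, 0.39 in gamma-delta T-like, 0.37 in other T, -0.47 in macrophage-like and 0.000991 in plasmacytoid DC-like cells. With equal weight per cell they were 0.010 in Treg-like, 0.40 in other T, 0.027 in B-like, 0.23 in plasma cell-like and 0.19 in plasmacytoid DC-like cells. With 1 more marker they were 0.94 in gamma-delta T-like, 0.46 in cDC1-like and 0.77 in migratory DC-like cells. After thinning they were -0.022 in cDC2-like and 0.0405 in plasmacytoid DC-like cells. With paired-lineage barcodes kept they were 0.060 in CD8 T-like and -0.21 in Treg-like cells. With 2-fold as the rule 4 pairs of gene and class were called higher and 1 lower, against 17 and 9, and with at least 50 UMIs 11 were called higher. The share of all genes called under these rules was not computed.

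With at least 4 ISGs, the ratio of ISG cells to the rest was 2.71 in CD8 T-like, 2.84 in CD4 T-like and 3.25 in other T cells of the WT NOD library, and thinning to 1000 UMIs moved no difference in the share of cells with a UMI out of its interval. The summed levels by class depended on the gate. With 1 more marker, 9 of the 26 levels by class and library left their counting interval and 17 stayed. With at least 200 genes all 26 stayed. No paired analysis was possible because each group has 1 library. Classes of 53 to 144 cells give few UMIs per gene, so that differences under 1.5-fold in single genes were mostly not detectable there.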
